A study of Mus musculus with 7 samples.

Results

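The transcription factors of the trophectoderm, the outer epithelium of the early mouse embryo that goes on to form the placenta, were followed by their messenger RNA in 7 single embryos. The group holds 9 genes, Cdx2, Gata2, Gata3, Eomes, Elf5, Tfap2a, Tfap2c, Id2 and Hand1, which were found by symbol among the 26586 gene symbols of the count table. The embryos were C57BL/6 morulae flushed from oviduct or uterus at 3 days post coitum, and all came from matings of L13a+/- mice (the gene is Rpl13a, of the large ribosomal subunit). They form 1 group of 7 replicates. Neither the genotype of an embryo, nor its sex or litter, nor the nature of the L13a mutation could be taken from the labels, so no genotypes were compared. Each embryo is 1 library, and differences between embryos may be technical as well as biological.

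In the morula, outer and inner cells take different fates. In outer cells, which have an apical domain, Hippo signalling is low, and the coactivators YAP1 and TAZ enter the nucleus, bind TEAD4 and switch on Cdx2 and Gata3. Inner cells keep the pathway on, exclude YAP1 from the nucleus and retain Pou5f1 (Oct4) and Sox2. CDX2 represses Pou5f1, and EOMES and ELF5 act later to maintain the trophoblast programme.

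The libraries differed widely in depth. Totals ran from 139619 counts in replicate 6 to 33123742 in replicate 4, a 237-fold range. A count of 0 allows up to 21.5 CPM (counts scaled to the library total) in replicate 6 and up to 0.0906 CPM in replicate 4, taking 3 counts as the limit. The libraries of replicates 2, 4 and 7 were the deep ones, with 16452890, 33123742 and 17122136 counts, and the other 4 had at most 2764409. Rpl13a itself was counted in every embryo, from 1 count in replicate 6 to 17558 in replicate 4. Limits and intervals cover counting error only, because amplified copies of a molecule cannot be told apart here. As each library is a whole embryo, fewer cells of a type and less RNA per cell cannot be told apart.

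Nearly the whole set was counted in replicate 4, the deepest library, and less of it in the other embryos. Replicate 4 had counts for 8 of the 9 genes, all but Elf5. At the total of replicate 6, 6 of these 8 would have an expected count of 1 or more. Replicate 2 had counts for 4, replicate 7 for 3, replicates 1 and 5 for 2 each, replicate 3 for 1 and replicate 6 for 0. Among the 7 of the 9 genes with a mean of 1 CPM or more, 7 had a count in replicate 4, where 84.0% of the 11810 genes past that filter had one. The corresponding figures were 4 of 7 genes against 72.1% in replicate 2, 3 against 69.5% in replicate 7, 2 against 41.7% in replicate 1, 2 against 27.7% in replicate 5, 1 against 29.0% in replicate 3 and 0 against 14.8% in replicate 6. Several of the 7 passed the filter through replicate 4 alone, so these counts describe the embryos and are no test. The highest CPM of 5 of these 7 fell in replicate 4, against 29.6% of the 11810 genes, that of Tfap2c in replicate 5 (7.1% of genes) and that of Gata2 in replicate 1 (10.9%). Tfap2a, which did not pass the filter, also peaked in replicate 4. A count in replicate 4 and in no other embryo was found for 2 of the 7, Cdx2 and Eomes, against 7.62% of genes.

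**Figure D1:**
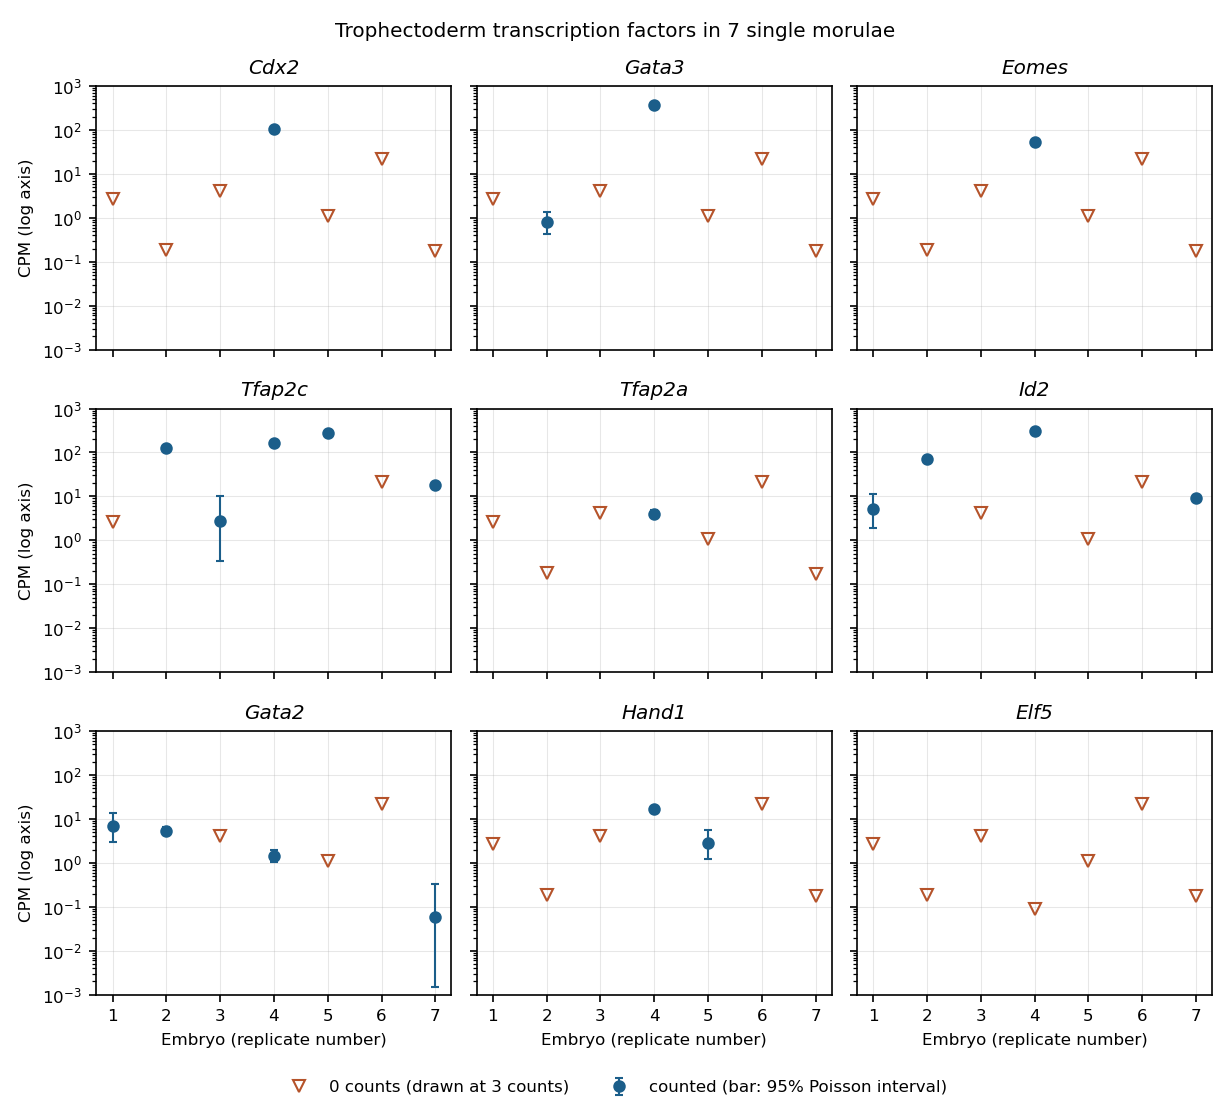
CPM of each of the 9 genes (log axis) in the 7 embryos, by replicate number; filled points are counted genes with 95% Poisson intervals, and open triangles mark 0 counts, drawn at the CPM that 3 counts would give. Cdx2, Eomes and Tfap2a have a filled point in replicate 4 only, Tfap2c has 5 filled points, and Elf5 has none.

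Cdx2, the caudal-type homeobox factor that defines the trophectoderm lineage, was counted in 1 embryo. It had 3490 counts in replicate 4, or 105 CPM (95% Poisson interval 102 to 109), and 0 counts in the other 6. The level in replicate 4 was at least 601-fold higher than in replicate 7 and at least 578-fold higher than in replicate 2, taking 3 counts per library as the limit. Against the shallow libraries the same bound was weaker, at least 97.1-fold for replicate 5 and at least 4.90-fold for replicate 6. At the total of replicate 6, the Cdx2 of replicate 4 would correspond to 14.7 counts. The gene (ENSMUSG00000029646.3) occupies positions 147300805 to 147307270 of chromosome 5 in build GRCm38, minus strand.

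Eomes, a T-box factor required for trophoblast development, showed the same distribution at a lower level. It had 1788 counts in replicate 4, or 54.0 CPM (51.5 to 56.5), and 0 in the other 6 embryos. That was at least 308-fold higher than in replicate 7 and at least 296-fold higher than in replicate 2. The gene lies on chromosome 9, from 118478212 to 118486132 on the plus strand (ENSMUSG00000032446.14). The annotated antisense gene Gm33460 overlaps it and has no entry of its own in the count table; the labels do not say whether the counting used strand, so their reads cannot be told apart.

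Gata3, a zinc finger factor that acts alongside Cdx2 downstream of TEAD4, was the most abundant of the 9 genes by counts in replicate 4. It had 12297 counts there, or 371 CPM (365 to 378), 13 counts in replicate 2, or 0.790 CPM (0.421 to 1.35), and 0 in the other 5. Replicate 4 was 470-fold above replicate 2 (95% interval of the ratio 275 to 883) and at least 2119-fold above replicate 7. Among the deep libraries Gata3 therefore ran over more than 3 orders of magnitude. It lies on chromosome 2, from 9857078 to 9890034 on the minus strand (ENSMUSG00000015619.10). The same-strand gene 9230102O04Rik overlaps it and had at most 74 counts (replicate 4), the opposite-strand 4930412O13Rik had 0, and Gm13256 has no entry in the table.

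The promoters of 3 genes that peaked together in replicate 4, Cdx2, Gata3 and Eomes, are printed beside that of Gata2, the relative of Gata3 that did not (the more upstream of its RefSeq starts). Shown are the 250 bases before each RefSeq transcription start in GRCm38.p6, read 5′ to 3′ on the gene's strand. Capitals mark matches to the AP-2 motif GCCNNNGGC, which the TFAP2 proteins bind.
Cdx2, chr5:147307250-147307499, minus strand: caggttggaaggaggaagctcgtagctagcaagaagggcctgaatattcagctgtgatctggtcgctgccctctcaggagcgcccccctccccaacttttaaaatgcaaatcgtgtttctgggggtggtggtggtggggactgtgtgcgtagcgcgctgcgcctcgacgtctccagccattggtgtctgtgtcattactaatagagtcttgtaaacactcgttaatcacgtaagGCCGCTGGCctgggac
Gata3, chr2:9878601-9878850, minus strand: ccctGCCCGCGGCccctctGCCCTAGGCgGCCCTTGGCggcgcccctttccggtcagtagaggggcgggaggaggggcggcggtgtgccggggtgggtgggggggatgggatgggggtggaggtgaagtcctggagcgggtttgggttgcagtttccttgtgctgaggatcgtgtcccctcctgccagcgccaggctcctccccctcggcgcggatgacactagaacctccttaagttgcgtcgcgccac
Eomes, chr9:118477939-118478188, plus strand: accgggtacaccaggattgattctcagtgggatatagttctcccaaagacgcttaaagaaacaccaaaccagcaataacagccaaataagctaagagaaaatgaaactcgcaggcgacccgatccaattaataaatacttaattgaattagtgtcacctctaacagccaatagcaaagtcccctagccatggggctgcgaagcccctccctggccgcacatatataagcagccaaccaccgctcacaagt
Gata2, chr6:88193641-88193890, plus strand: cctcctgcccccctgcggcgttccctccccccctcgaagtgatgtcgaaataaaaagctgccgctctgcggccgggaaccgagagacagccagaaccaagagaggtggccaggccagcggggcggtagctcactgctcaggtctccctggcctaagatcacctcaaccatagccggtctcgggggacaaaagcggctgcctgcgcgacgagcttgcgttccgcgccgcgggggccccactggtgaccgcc
The search also covered a TEAD motif, GGAATG, and a GATA motif, GATAA, on both strands; GCCNNNGGC is its own reverse complement. In these windows Cdx2 held 1 AP-2 match, beginning 16 bases before the start, within the 21 bases of its window in annotated exon. Gata3 held 3, each near the 5′ end of its window, while Eomes and this Gata2 window held none of the 3 motifs. The window of the other Gata2 start, which lies wholly in annotated exon and is not printed, held 1 AP-2 and 1 TEAD match. The windows of Tfap2a (2 starts) and Id2, which also peaked in replicate 4, held no match to any of the 3, so the matches do not separate the genes that peaked there from Gata2. Annotated exon covered 180 bases of 1 of these Tfap2a windows and 161 bases of the Id2 window. Of 32851 RefSeq promoter windows of the same length, 13.7% held the AP-2 letters, 12.6% the TEAD letters and 22.6% the GATA letters. The 4 windows had 55.2% (Cdx2), 70.0% (Gata3), 46.4% (Eomes) and 67.2% (Gata2) G or C bases, against a median of 52.4% over all windows. A match is a string of letters and not a measured binding site.

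Gata2, a GATA factor of trophoblast giant cells and of blood progenitors, was scarce and was distributed differently from Gata3. It had 8 counts in replicate 1, 88 in replicate 2, 48 in replicate 4 and 1 in replicate 7, and 0 in replicates 3, 5 and 6. Scaled to the library total, the level was 6.99 CPM (3.02 to 13.8) in replicate 1, 5.35 (4.29 to 6.59) in replicate 2, 1.45 (1.07 to 1.92) in replicate 4 and 0.0584 (0.00148 to 0.325) in replicate 7. In replicates 3 and 6, 0 counts allow up to 4.13 and 21.5 CPM, which lie above the level of replicate 4. The levels of replicates 1 and 2 differed by less than their counting error (ratio 1.31, interval 0.547 to 2.69), and replicate 1 was 4.83-fold above replicate 4 (1.97 to 10.3). Gata2 was thus lower in the embryo with the most Gata3 than in 2 of the others.

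The split between Gata2 and Gata3 differed as well. A share within a library does not depend on its depth, but it moves with both genes. Gata2 made up 0.389% (95% Clopper-Pearson interval 0.287 to 0.515) of the Gata2 and Gata3 counts in replicate 4, where they summed to 12345. In replicate 2 it made up 87.1% (79.0 to 93.0) of 101 counts, and in replicate 1 all 8 counts (63.1 to 100%). The intervals of replicates 4 and 2 lie far apart. The 18 oviduct and uterine epithelium markers of the mother's tract summed to 1164, 2444 and 49.9 CPM in replicates 1, 2 and 4. Of them 8, 13 and 3 were counted there, where 41.7%, 72.1% and 84.0% of the 11810 genes were. Their sum was 6288 CPM in replicate 6, with 0 Gata2 and 0 Gata3 counts. It was 494 CPM in replicate 7, with 1 Gata2 count, and 365 and 1.81 CPM in replicates 3 and 5, with 0. Lcn2, a secreted lipocalin, had 331, 13743, 0, 0, 5, 208 and 387 counts in replicates 1 to 7. The part of oviduct or uterine cells in the Gata2 counts was not tested. Gata2 lies on chromosome 6, from 88193891 to 88207032 on the plus strand (ENSMUSG00000015053.14).

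**Figure D2:**
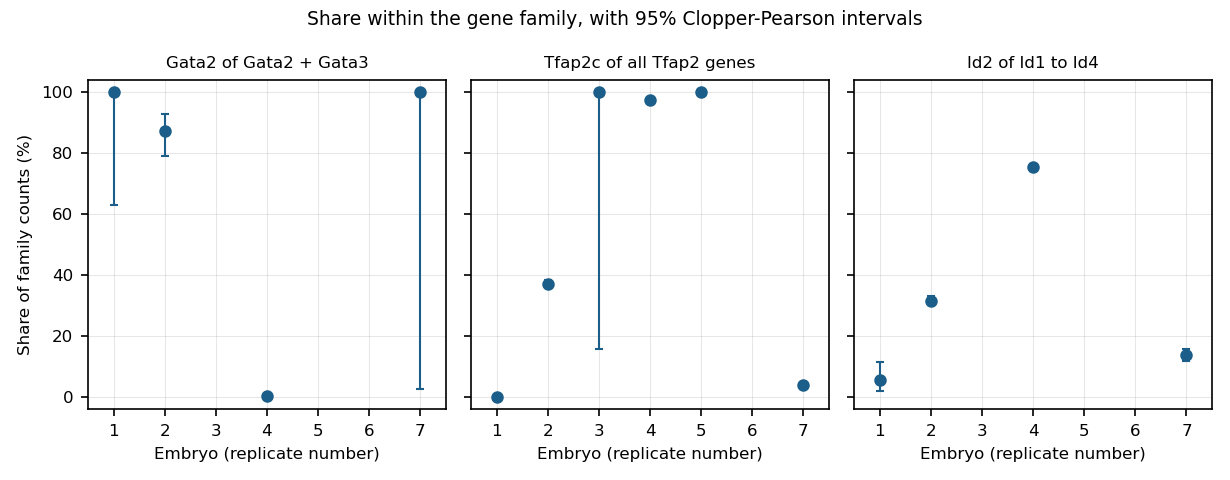
Share of a gene's counts within its family in each embryo (percent, with 95% Clopper-Pearson intervals), for Gata2 of Gata2 and Gata3, Tfap2c of all Tfap2 genes and Id2 of Id1 to Id4; embryos with 0 family counts have no point. Gata2 is at 0.389% in replicate 4 and 87.1% in replicate 2, and Id2 is highest in replicate 4 at 75.6%.

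Tfap2c (AP-2 gamma), which is present in every blastomere before the lineages part and activates Cdx2 and tight junction genes, was the most widely counted of the 9. It had 2037 counts in replicate 2, 2 in replicate 3, 5573 in replicate 4, 774 in replicate 5 and 316 in replicate 7, and 0 in replicates 1 and 6. The level was 124 CPM (119 to 129) in replicate 2, 2.76 (0.334 to 9.96) in replicate 3, 168 (164 to 173) in replicate 4, 280 (261 to 300) in replicate 5 and 18.5 (16.5 to 20.6) in replicate 7. Replicate 5, not replicate 4, was highest, 1.66-fold above replicate 4 (1.54 to 1.79), 2.26-fold above replicate 2 (2.08 to 2.46) and 15.2-fold above replicate 7 (13.3 to 17.4). Tfap2c was therefore present at over 100 CPM in 3 embryos, of which 1 had Cdx2. It lies on chromosome 2, from 172549593 to 172558622 on the plus strand (ENSMUSG00000028640.11).

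Set against Tfap2c in the same library, the share of Cdx2 does not depend on the total, but it moves with Tfap2c as well. Of the Cdx2 and Tfap2c counts together, Cdx2 held 38.5% (37.5 to 39.5) in replicate 4 and 0 of 2037 in replicate 2, which allows up to 0.181%. In replicate 5 it held 0 of 774 (up to 0.476%) and in replicate 7 0 of 316 (up to 1.16%). In replicate 3 Cdx2 held 0 of 2 (up to 84.2%), and replicates 1 and 6 had no Tfap2c count to compare with. Gata3 held 68.8% (68.1 to 69.5) against Tfap2c in replicate 4 and 0.634% (0.338 to 1.08) in replicate 2. These pairings were chosen after the values were seen, and they describe the libraries.

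Tfap2a (AP-2 alpha), the close relative of Tfap2c, was found in replicate 4 only, with 134 counts, or 4.05 CPM (3.39 to 4.79). It was at least 23.1-fold lower in replicate 7 and at least 22.2-fold lower in replicate 2. At the total of replicate 6 that level would give 0.565 counts, so a difference from replicate 6 was not detectable. In replicate 3, 0 counts allow up to 4.13 CPM, which lies just above the level of replicate 4. In replicate 4 it made up 2.35% (1.97 to 2.78) of the Tfap2a and Tfap2c counts, and in replicate 2 it had 0 of 2037, which allows up to 0.181%. It lies on chromosome 13, from 40715302 to 40738376 on the minus strand (ENSMUSG00000021359.16), and 3 annotated antisense genes without an entry in the table overlap it.

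Another member of the family, Tfap2e, ran the other way. It had 7 counts (0.211 CPM) in replicate 4, against 428 (374 CPM), 3438 (209 CPM) and 8074 (472 CPM) in replicates 1, 2 and 7, and 0 in replicates 3, 5 and 6. As a result Tfap2c made up 97.5% (97.1 to 97.9) of all Tfap2 counts in replicate 4 and 100% (99.5 to 100) in replicate 5, but 37.2% (35.9 to 38.5) in replicate 2, 3.77% (3.37 to 4.196) in replicate 7 and 0 of 485 in replicate 1. The 20 oocyte transcripts summed to 10817, 11404 and 19459 CPM in those 3 embryos, and to 14686, 4136, 692 and 7241 CPM in replicates 3, 4, 5 and 6; their part in the Tfap2e counts was not tested.

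Id2, a helix-loop-helix protein that lacks a DNA-binding region and is an early mark of outer cells, was counted in 4 embryos. It had 6 counts in replicate 1, 1179 in replicate 2, 10425 in replicate 4 and 160 in replicate 7, and 0 in replicates 3, 5 and 6. The level was 315 CPM (309 to 321) in replicate 4, 71.7 (67.6 to 75.9) in replicate 2, 9.35 (7.95 to 10.9) in replicate 7 and 5.25 (1.93 to 11.4) in replicate 1. Replicate 4 stood 4.39-fold above replicate 2 (4.14 to 4.67), 33.7-fold above replicate 7 (28.8 to 39.6) and at least 290-fold above replicate 5. Unlike Cdx2 and Gata3, Id2 was thus well counted in a 2nd embryo. It lies on chromosome 12, from 25093799 to 25097140 on the minus strand (ENSMUSG00000020644.9).

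Within its family Id2 took a different share in each of the 4 embryos with Id counts. Replicates 3, 5 and 6 had 0 counts of the family. Of the counts of Id1, Id2, Id3 and Id4 it made up 75.6% (74.9 to 76.3) in replicate 4, 31.5% (30.0 to 33.0) in replicate 2, 13.6% (11.7 to 15.7) in replicate 7 and 5.50% (2.05 to 11.6) in replicate 1. The 4 intervals, which cover counting error only, do not overlap, but those of replicates 7 and 1 nearly meet. Id4 had 103 and 1463 counts in replicates 1 and 2 and 0 elsewhere, and Id3 had 3363 and 1014 counts in replicates 4 and 7 and 0 elsewhere.

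Hand1, a basic helix-loop-helix factor of trophoblast giant cells, had 564 counts in replicate 4, or 17.0 CPM (15.6 to 18.5), 8 counts in replicate 5, or 2.89 CPM (1.25 to 5.70), and 0 in the other 5 embryos. Replicate 4 was 5.88-fold above replicate 5 (2.97 to 13.7) and at least 97.2-fold above replicate 7. In replicate 6, 0 counts allow up to 21.5 CPM, which lies above the level of replicate 4. The authors' log2 table gives the opposite order, 1.18 in replicate 4 and 4.50 in replicate 5, and Hand1 is the only one of the 8 counted factors whose highest embryo differs between the tables. It lies on chromosome 11, from 57828705 to 57832818 on the minus strand (ENSMUSG00000037335.13).

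Elf5, an ETS factor of later trophoblast stem cells whose promoter is methylated in the embryo proper, had 0 counts in all 7 embryos. The tightest limit came from replicate 4, where 0 counts allow up to 0.0906 CPM, and those of replicates 7 and 2 were 0.175 and 0.182 CPM. Against the 5573 Tfap2c counts of replicate 4, Elf5 could hold up to 0.0662% of their sum. Elf5 lies on chromosome 2, from 103411688 to 103450989 on the plus strand (ENSMUSG00000027186.14). Its relative Elf3, an epithelial ETS factor, was counted in 3 embryos, with 35560 counts in replicate 4 (1074 CPM), 3099 in replicate 2 (188 CPM), 649 in replicate 7 (37.9 CPM) and none counted in the rest.

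Per length of annotated exons, the factors of replicate 4 spanned more than 2 orders of magnitude. On the RPKM scale (CPM over exon length in kilobases), Id2 was highest at 129 (127 to 132), followed by Gata3 at 93.3 (91.7 to 94.99). Cdx2, at 46.6 (45.1 to 48.2), and Tfap2c, at 45.7 (44.5 to 46.9), did not differ beyond their counting intervals. Eomes stood at 12.99 (12.4 to 13.6), Hand1 at 8.53 (7.84 to 9.26), Tfap2a at 0.825 (0.691 to 0.977) and Gata2 at 0.269 (0.198 to 0.356). In replicate 2 the order was Tfap2c at 33.7, Id2 at 29.4, Gata2 at 0.991 and Gata3 at 0.199 RPKM, so the place of Gata2 above Gata3 was the reverse of replicate 4. Lengths came from GENCODE M21, which may not be the annotation the authors counted on.

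Summed over the 9 genes, the counts were 14, 3317, 2, 34319, 782, 0 and 477 in replicates 1 to 7. As a level the sum was 1036 CPM (1025 to 1047) in replicate 4, 283 (263 to 303) in replicate 5, 202 (195 to 209) in replicate 2, 27.9 (25.4 to 30.5) in replicate 7 and 12.2 (6.69 to 20.5) in replicate 1. Replicate 4 was highest, and the make-up differed as much as the sum. By counts, not corrected for length, Gata3 gave 35.8%, Id2 30.4%, Tfap2c 16.2% and Cdx2 10.2% of the total in replicate 4. Tfap2c alone gave 99.0% (97.99 to 99.6) in replicate 5 and 61.4% (59.7 to 63.1) in replicate 2. In replicate 7 Tfap2c gave 66.2% (61.8 to 70.5) and Id2 33.5% (29.3 to 38.0), close to the 35.5% (33.9 to 37.2) of Id2 in replicate 2.

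**Figure D3:**
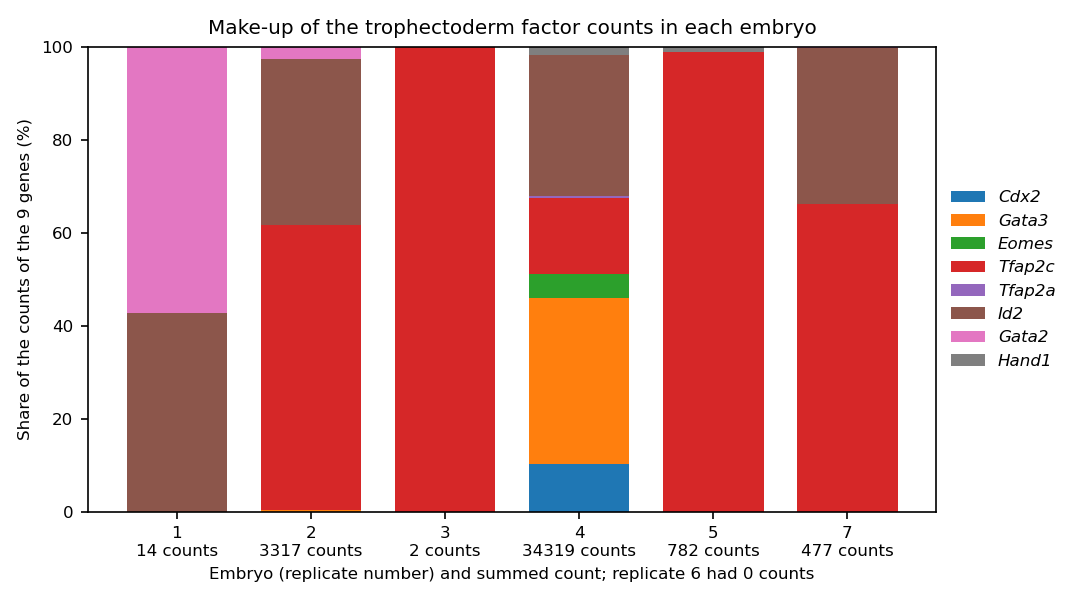
Share of each gene in the summed counts of the 9 trophectoderm factors (percent, stacked to 100) in the 6 embryos with any count, with the summed count under each bar. Replicate 4 holds 8 genes led by Gata3 at 35.8%, replicate 5 is nearly all Tfap2c, and the bars of replicates 1 and 3 rest on 14 and 2 counts.

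The spread of these genes between embryos had a median close to that of all genes. The SD of log2 CPM over the 7 embryos (TMM-scaled, prior count 2) had a median of 3.49 over the 7 factors with a mean of 1 CPM or more and 3.63 over all 11810 such genes. It was largest for Tfap2c, at 4.55, followed by Id2 at 4.42 and Gata3 at 4.13, and smallest for Gata2, at 2.33. Without replicate 4 the SD of Gata3 was 0.789, that of Hand1 was 1.42 in place of 2.70, and those of Cdx2 and Eomes were 0.0. With edgeR's quasi-likelihood dispersion test and Benjamini-Hochberg adjustment, 0 of the 7 passed, against 0.0% of the 11810 genes, with adjusted p from 0.869 to 0.897. Without adjustment 0 of the 7 and 68 of the 11810 had a p under 0.05. DESeq2 marked 0 genes as dispersion outliers, and limma on the authors' table called 2, neither of them a trophectoderm factor. Embryos varied so much in all genes (common dispersion 9.02) that a p above the threshold says little about any 1 of them.

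Of 18 genes upstream of the factors (Hippo, Notch and Klf5), 17 were counted in replicate 4, where 84.0% of the 11810 genes were. In replicate 2 the count was 13 (72.1% of genes), in replicate 1 it was 11 (41.7%) and in replicate 7 it was 10 (69.5%). Replicates 3 and 5 had 4 each (29.0% and 27.7%), and replicate 6 had 1, Yap1 (14.8%). The highest CPM of 10 of the 18 fell in replicate 4, against 29.6% of the 11810 genes past the filter. These 18 genes summed to between 390 and 1967 CPM, highest in replicate 1, and replicate 4 had 1331 CPM. Yap1 had 2257 counts (68.1 CPM) in replicate 4 and 0 in replicate 5, and reached 1253 CPM in replicate 6 on 175 counts. Wwtr1, which encodes TAZ, was counted in 4 embryos, at 250, 153, 263 and 26.7 CPM for replicates 2, 4, 5 and 7. Tead4, the DNA-binding partner that Cdx2 depends on, was counted in fewer embryos, with 4955 counts in replicate 4 (150 CPM), 242 in replicate 2 (14.7 CPM) and none counted in the rest. Klf5, needed for trophectoderm formation, had 15908 counts in replicate 4 (480 CPM) but was higher in CPM in replicate 3, at 820 CPM on 595 counts. Lats2, a Hippo kinase, peaked at 58.6 CPM in replicate 5, and Amot, which holds YAP1 at junctions of inner cells, at 83.9 CPM in replicate 4.

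Of 20 structural and transport genes of the trophectoderm, 18 were counted in replicate 4 (84.0% of the 11810 genes), 16 in replicate 2 (72.1%), 15 in replicate 7 (69.5%) and 7 or fewer in the rest, an order that is also that of all genes. The highest CPM of 13 of the 20 fell in replicate 4, against 29.6% of the 11810 genes. Their sum was 6228 CPM in replicate 4, 3581 CPM in replicate 6 on 2 counted genes, and 824 CPM or less in the other 5 embryos. Krt8, a keratin of the outer epithelium, had 42849 counts in replicate 4 and 1468 in replicate 2, a pair of embryos that also had Gata3 and Tead4, and 0 in the others. Dab2, an endocytic adaptor, had counts in those 2 embryos and in replicates 1, 6 and 7, with its peak of 3065 CPM in replicate 6, where all 9 factors were at 0. In that library stroma, decidua and muscle genes summed to 4734 CPM, of which Dcn, a matrix proteoglycan, gave 4240 CPM, against 15.8 CPM in replicate 4. Whether the Dab2 counts of replicate 6 come from the embryo was not tested.

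Other factors of trophoblast peaked in several embryos. Of 17 genes in the table, 15 were counted somewhere, as were 14964 of all 26586 symbols. Of the 17, 5 peaked in replicate 4, where 29.6% of the 11810 genes did. Sox15, which acts with Hand1 in giant cells, had 8962 counts in replicate 5 (3242 CPM), 2591 in replicate 4 (78.2 CPM) and 1355 in replicate 7 (79.1 CPM). Dlx3, a homeobox factor of the placenta, had 2804 counts in replicate 2 (170 CPM) and 0 in the other 6 embryos, replicate 4 included. Tbx3 was highest in replicate 6, at 315 CPM on 44 counts, and had 151 and 160 CPM in replicates 4 and 7. Smarca4 (BRG1), a chromatin remodeller that silences Nanog in outer cells, had 190 and 210 CPM in replicates 4 and 7 and 153 CPM in replicate 2.

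Factors of the inner cell mass were present in the same embryo. Of 13 genes, 10 had counts in replicate 4, where 84.0% of the 11810 genes had one, and 8 of the 12 counted anywhere peaked there, against 29.6% of those genes. They summed to 1797 CPM in replicate 4, against 896 CPM in replicate 2 and 579 CPM in replicate 7. Nanog, like Cdx2 and Eomes, was counted in replicate 4 alone, with 2596 counts. Pou5f1 had 16991 counts in replicate 4, 841 in replicate 2 and 5050 in replicate 7. Cdx2 made up 17.0% (16.5 to 17.6) of the Cdx2 and Pou5f1 counts in replicate 4, 0 of 841 in replicate 2 (up to 0.438%) and 0 of 5050 in replicate 7 (up to 0.0730%). Replicates 2 and 7 thus held Oct4 transcripts without a count of Cdx2. Gata6, the primitive endoderm relative of Gata2 and Gata3, had 12617 counts in replicate 4, and its relative Gata4 had 0 there and 1176 and 1423 in replicates 2 and 7. Of the 13 genes, 4, 3, 5 and 1 had counts in replicates 1, 3, 5 and 6. The shares of the 11810 genes with a count there were 41.7%, 29.0%, 27.7% and 14.8%. Pou5f1, Nanog, Cdx2 and Krt8 had 0 counts in these shallow libraries, while Sall4 had 155, 282 and 24 counts in replicates 1, 3 and 5.

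**Figure D4:**
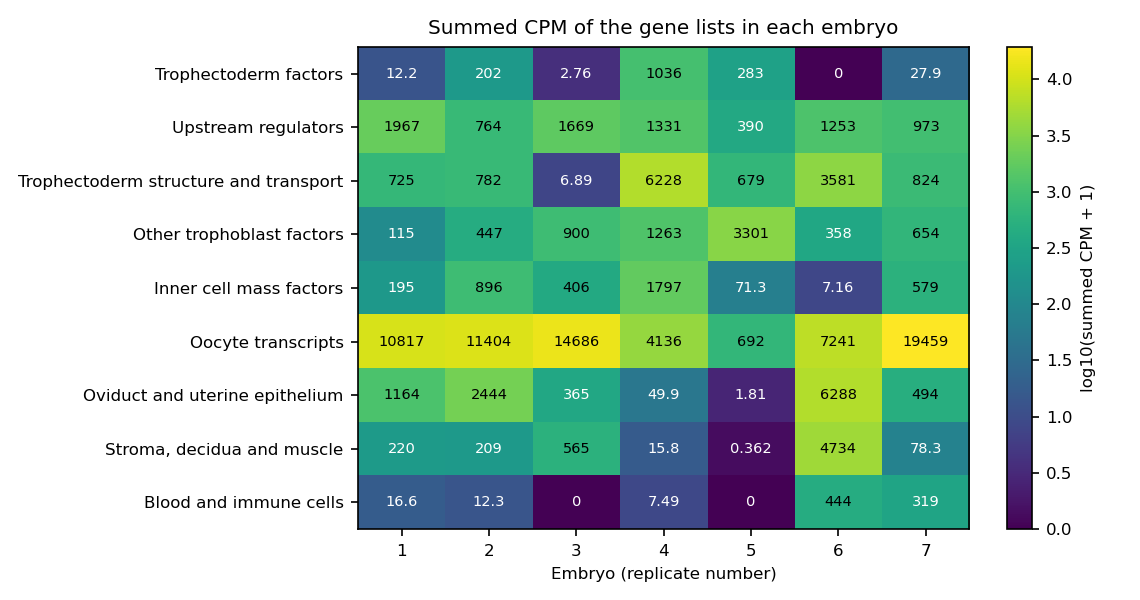
Summed CPM of the trophectoderm factors, of related gene lists and of markers of other tissues in each of the 7 embryos; the number in each cell is the sum and the colour its log10 after adding 1. Trophectoderm factors, trophectoderm structure and transport genes and inner cell mass factors are highest in replicate 4 (1036, 6228 and 1797 CPM), while markers of oviduct, uterus and stroma are highest in replicate 6.

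For the 3 factors counted in at least 3 embryos with a mean of 1 CPM or more, the genes of most similar pattern were found by the root mean square difference of centred log2 CPM over the 7 embryos, among 11809 genes. Nearest to Id2 were Arpc1b, an Arp2/3 subunit, at 0.435, the GTPase Rheb at 0.438 and Dstn, an actin-depolymerising protein, at 0.719, where the median gene was at 3.56. Tfap2c was nearest to Atp5e, a subunit of ATP synthase (0.642), Ppdpf (0.766) and the RNA helicase Ddx49 (0.780), with a median of 4.16. Gata2 was nearest to Chrnb1, an acetylcholine receptor subunit (0.382), Dcaf6 (0.554) and 2700089E24Rik (0.590), with a median of 3.33. No gene of the upstream, trophoblast or inner cell mass lists was among these 9, and with 7 libraries of such unequal depth many genes share a pattern of zeros.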

How the data were processed

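Polyadenylated RNA of 7 single embryos was copied with SMART-Seq v4 and sequenced from Nextera XT libraries, per the labels' protocols. The authors deposited a table of whole-number read counts and a table of normalized log2 values, made with HISAT2 2.0.5, featureCounts 1.5.0-p2, limma and GRCm38, per the submitters' processing notes; these name no settings, gene annotation or strand mode. Recomputing the deposited log2 values from the counts gave log2 CPM after quantile normalization, which forces 1 set of values on every library. Here, CPM are counts over the library total. Log2 CPM used TMM factors and a prior count of 2 in edgeR 4.0.16 under R 4.3.3. The dispersion test compared each gene's quasi-likelihood dispersion with that of genes of like abundance (intercept only, mean CPM of 1 or more, one-sided F test, threshold 0.05). It was also run on simulated data, with an outcome that is not reported here. DESeq2 1.42.0 and limma 3.58.1 served as alternatives. Intervals are exact Poisson or Clopper-Pearson at 95%; intervals of ratios condition on the summed count. All columns were used. Positions and exon lengths are from GENCODE M21, and promoters, found for 7 of the 9 genes, from RefSeq GRCm38.p6. Named were the 9 genes, the 3 nearest genes by pattern, and from 10 other lists the 2 most abundant members and regulatory genes of mean CPM 10 or more; only some of those are described. Members and lists were chosen with earlier results of these data known. The replicate numbers come from the sample titles. No label says that embryos came from separate litters, so a p-value here reflects sample-to-sample spread, which may be technical.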

Additional observations from a re-analysis of the deposited data

Results flagged for a closer look

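Of 19 values examined over the 7 embryos (CPM of each counted factor and the summed CPM of each list), 11 had 1 embryo set apart by a gap. The share of that gap in the whole range was past Dixon's critical value for 7 samples. For normally distributed values chance gives this in about 1 in 20 groups. The CPM values are skewed and many are 0, which makes such gaps common. A gene counted in 1 embryo has a gap of 1.0 by construction, and 7.62% of the 11810 genes were counted in replicate 4 alone. The share of all genes past the critical value is not given here, so the 11 are a description and no test. The gap was 1.0 of the range for Cdx2, Eomes and Tfap2a, 0.998 for Gata3, 0.83 for Hand1 and 0.772 for Id2, with replicate 4 highest in each. It was 0.727 for the summed CPM of the 9 factors, again with replicate 4 highest. Replicate 5 stood apart in the sum of other trophoblast factors (0.640), where Sox15 gave 3242 of 3301 CPM. Replicate 6, the shallowest library, stood apart in oviduct and uterine epithelium markers (0.612) and in stroma, decidua and muscle markers (0.881). Replicate 2 stood apart in cumulus and granulosa markers (0.970), which rest on Inha, with 198 counts there and 0 elsewhere. Of the 10 markers 3 had any count, where 14964 of all 26586 symbols had one. Blood and immune markers, with 8 of 13 counted anywhere and at most 444 CPM (replicate 6), and the 20 family relatives of the factors, at most 1631 CPM (replicate 4), had no such gap. Tfap2c and Gata2 also had none, at 0.399 and 0.235.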

How the results depend on the processing

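Cdx2, Gata3, Eomes, Tfap2a and Id2 were highest in replicate 4 under library totals, TMM, DESeq2 size factors and the authors' log2 table. Hand1 was highest in replicate 4 under the first 3 and in replicate 5 in the authors' table, which raised the number of factors highest in replicate 5 to 2. With limma on that table, Siah2 and Zbed3 (2 genes) passed the test of spread, against 0 in the other 12 alternatives; 0 factors passed in any of the 13, which say little at this dispersion. Leaving out 1 embryo in turn, the counts of genes and of factors past the test stayed at 0, and the median SD of the factors ran from 3.35 (without replicate 4, 3 factors left) to 3.86 (without replicate 6); under the other 6 alternatives it ran from 2.95 (the authors' table) to 4.27 (mean CPM of 10 or more). Without replicate 4, the SD of Cdx2 and of Eomes was 0.0, that of Gata3 0.789 (4.13 over all 7) and that of Hand1 1.42 (2.70). Detection depended on the minimum. Asking for 3 counts left 0 factors in replicate 3. Asking for 10 left 0 in replicates 1 and 3 and 1 in replicate 5. Asking for an expected count of 1 or more at the total of replicate 6 left 0 in replicates 1 and 3, 2 in replicate 2 and 1 in replicate 5. TMM scaling moved the summed CPM of replicate 4 to 1418. No paired analysis was possible because the 7 embryos form 1 group. Depth limits the 4 shallow libraries most. In replicate 6 a count of 0 allows the Tfap2a, Hand1 and Gata2 levels of replicate 4. In replicate 3 it allows the Gata2 level of replicate 4 and, narrowly, that of Tfap2a.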
